A study of Mus musculus with 93 samples.

Results

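Cytosolic ribosomal proteins build, together with ribosomal RNA, the small 40S and the large 60S subunit of the ribosomes that translate mRNA in the cytoplasm. Their mRNAs were measured by RNA-seq in the livers of 93 male mice of 7 inbred strains fed 1 of 2 diets. The members were the genes with 10 or more counts in at least 5 mice whose symbol is Rpl or Rps followed by a number and at most a final a, x or y, or Rplp0, Rplp1, Rplp2 or Rpsa, with pseudogenes left out. This rule uses names and a minimum count and no difference between diets or strains. It found 76 of the 53465 genes in the count table, 30 of the 40S subunit and 46 of the 60S subunit, the latter with the 3 proteins of the P-stalk. All 76 were annotated as protein coding, and no gene with a matching symbol fell below the minimum. The member nearest to it was Rpl24, with 1 to 28 counts per mouse.

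The strains were C57BL/6J (8 mice on control diet and 8 on Western diet), DBA/2J (6 and 7), A/J (5 and 6), 129S1/SvImJ (7 and 6), WSB/EiJ (6 and 6), CAST/EiJ (7 and 8), and PWK/PhJ (6 and 7). Control diet (CD) gave 10% of its calories as fat and 73% as carbohydrate, and Western diet (WD) gave 40% and 43%, with 17% protein in both. Every mouse was kept at thermoneutrality, 30°C, from week 6, ate its diet from week 7 for 17 weeks, and was 24 weeks old at sacrifice. The labels place the mice in 7 cohorts, each strain came from more than 1, and each of those cohorts held both diets of the strain. Only males were studied, and reads of all strains were mapped to the C57BL/6J genome.

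Each ribosome needs its proteins in fixed numbers, and their mRNAs are among the most abundant transcripts of most cells. These mRNAs belong to the 5′ terminal oligopyrimidine (TOP) mRNAs, which begin with a C followed by a run of C and T in the gene sequence. Through this tract, mTORC1, the kinase complex that senses nutrients and insulin, controls their translation by way of the TOP mRNA binding protein LARP1, which also affects their stability. The liver adjusts its ribosome content to feeding and fasting.

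The sequences around the start site of 6 members are printed because the TOP tract is the feature that groups these mRNAs. Each window of 30 bases is centred on the start site annotated by RefSeq in GRCm38.p6 and runs 5′ to 3′ on the strand of the gene, and capitals mark the run of C and T that begins at the first transcribed base.
Rps6, chr4:86857353-86857382, minus strand: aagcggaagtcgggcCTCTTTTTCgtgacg
Rpl28, chr7:4792950-4792979, plus strand: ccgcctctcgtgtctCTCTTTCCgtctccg
Rps15a, chr7:118116133-118116162, minus strand: ctctctttctgccatCTTCCCTCgccggtg
Rps18, chr17:33955651-33955680, minus strand: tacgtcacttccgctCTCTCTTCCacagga
Rps21, chr2:180257364-180257393, plus strand: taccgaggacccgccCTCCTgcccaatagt
Rplp2, chr7:141447636-141447665, plus strand: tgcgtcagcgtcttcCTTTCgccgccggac
The promoter table held 56 of the 76 members, with 66 start sites. The motif, a C at the start site followed by at least 4 further C or T on the strand of the gene, was found at 13 of them (19.7%), and at 2.51% of the 32851 start sites of all genes. When the C was allowed to lie up to 5 bases before or after the annotated site, 29 of the 66 sites (43.9%) and 18.3% of all sites held it. The other members with the motif at the start site were Rpl14, Rpl15, Rpl35, Rpl35a, Rpl38, Rps10, and Rps27. A window without these letters says nothing about the mRNA's real start.

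The deposited values were raw counts. Reads on genes numbered 40020424 to 49894856 per mouse (median 46618609), and RNA integrity numbers (RIN) ranged from 7.0 to 9.7, with 4 mice under 8. Hepatocyte markers were high in every mouse, with sums over 10 genes of 77250 to 225000 CPM (read counts scaled by the TMM library size). Whole liver was sequenced, so fewer cells of a type and less RNA per cell cannot be told apart. For 3 mice, the share of gene reads on the members stood apart from the rest of their group. C57BL/6J CD replicate 2 had 1.51% (others 0.993 to 1.21%) and C57BL/6J WD replicate 3 had 1.29% (others 0.918 to 1.04%). Both also had the highest sums of hepatic stellate cell, cholangiocyte, neutrophil and monocyte, and B and plasma cell markers in their groups. Their sums of endothelial markers were the lowest. A/J WD replicate 3 had 0.999% (others 0.828 to 0.887%), with a sum of Kupffer cell markers of 808 CPM, where the other A/J WD mice had 315.6 to 493.9. Its sums of neutrophil and monocyte, B and plasma cell, T and NK cell, and stellate cell markers were also the highest of its group. Counts of called members are given with and without these 3 mice where they differ by a large factor.

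Within each strain, mice on WD were set against those on CD to ask how a fat-rich diet changed the liver in each genetic background. Most mRNAs of ribosomal proteins were lower on WD in each of the 7 strains, and none was called higher in any strain. The number called lower was 75 of 76 in PWK/PhJ, 73 in WSB/EiJ, 69 in CAST/EiJ, and 63 in C57BL/6J, while DBA/2J had 57, 129S1/SvImJ 43, and A/J 39. Differences were small and alike across members. The median log2 fold change was −0.45 in PWK/PhJ (27.0% lower), −0.31 in WSB/EiJ (19.5%), −0.28 in CAST/EiJ (17.6%), −0.23 in DBA/2J (15.0%), −0.22 in C57BL/6J (14.1%), −0.21 in A/J (13.3%), and −0.18 in 129S1/SvImJ (11.6%). The median over all genes lay between −0.01 and 0.02 in every strain.

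Calls came from limma-voom on counts normalized by the trimmed mean of M-values (TMM), with 1 mean for each of the 14 groups, Benjamini–Hochberg adjustment over the 19110 genes tested, and an adjusted p below 0.05. Of all genes tested, the share called lower on WD was 11.9% in C57BL/6J, 7.77% in DBA/2J, 4.64% in A/J, 13.6% in 129S1/SvImJ, 3.97% in WSB/EiJ, 9.73% in CAST/EiJ, and 14.5% in PWK/PhJ. The share called higher was 14.3%, 10.2%, 4.39%, 14.5%, 4.97%, 9.77%, and 15.1% in the same order. At an unadjusted p below 0.05, still 0 members were higher in any strain, and edgeR and DESeq2 also called 0 higher. In A/J, leaving out CD replicate 2 or CD replicate 3 lowered the count of members from 39 to 25 or 21, and without the A/J and C57BL/6J mice that stood apart it was 52. Scaling to library size alone left 0 called in A/J, 7 in 129S1/SvImJ, 22 in CAST/EiJ, and 41 in WSB/EiJ, and upper-quartile factors gave 25 in A/J and 17 in 129S1/SvImJ. Library-size scaling moved the median of all genes to 0.13 on the log2 scale in A/J, 0.14 in CAST/EiJ, and 0.16 in PWK/PhJ. Scaling shifts every gene of a library alike, so the distance of the members from all genes hardly depends on it. At the median, that distance was −0.20 in A/J, −0.30 in CAST/EiJ, and −0.44 in PWK/PhJ with TMM and with library size alone. It is therefore no test of the scaling.

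**Figure D1:**
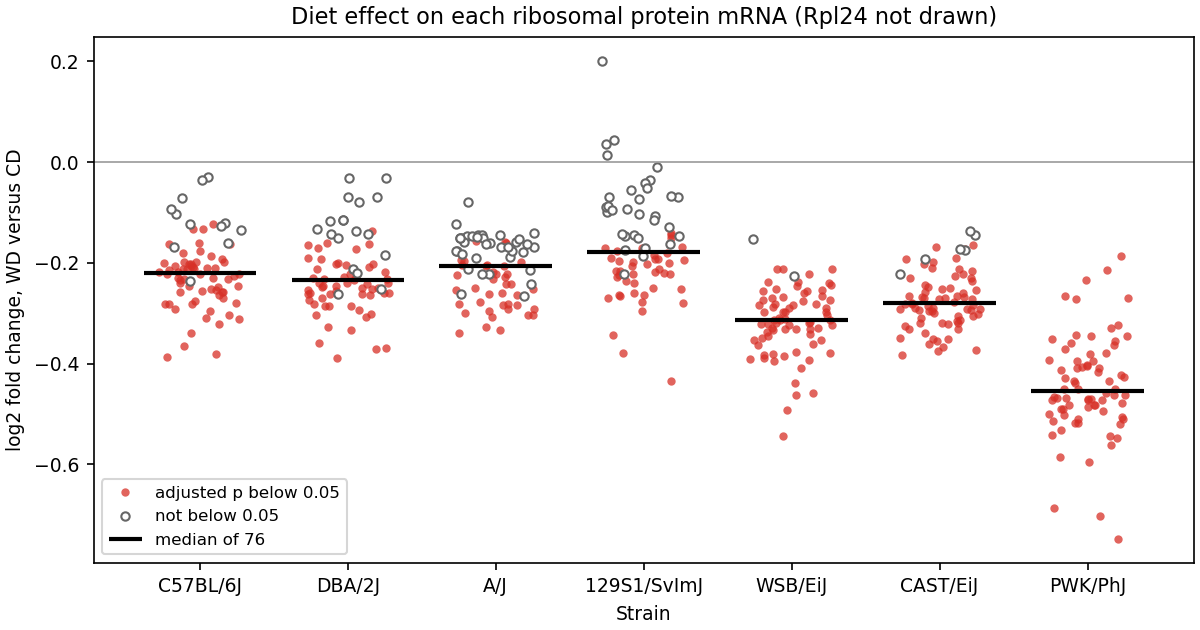
Each point is a member's log2 fold change of WD against CD in 1 strain (Rpl24, with few counts, is not drawn), red where limma's adjusted p was below 0.05 and open where it was not, and the black line is the median of the 76. The medians run from −0.18 in 129S1/SvImJ to −0.45 in PWK/PhJ, and the only points above 0 are open.

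The sign of the difference was the same for nearly every member. In C57BL/6J, A/J, WSB/EiJ, CAST/EiJ, and PWK/PhJ, all 76 log2 fold changes were below 0. The exceptions, none of them called, were Rpl24 in DBA/2J (0.06) and Rpl12 (0.04), Rpl13a (0.20), Rpl15 (0.01), and Rplp1 (0.04) in 129S1/SvImJ. The spread among members was narrow, with quartiles of −0.50 and −0.39 in PWK/PhJ, −0.26 and −0.18 in C57BL/6J, and −0.22 and −0.11 in 129S1/SvImJ. Both subunits took part. In PWK/PhJ, 30 of 30 proteins of the 40S subunit and 45 of 46 of the 60S subunit were lower, with medians of −0.48 and −0.43. In WSB/EiJ, the numbers were 30 and 43 (medians −0.33 and −0.30), in CAST/EiJ 28 and 41 (−0.29 and −0.27), and in C57BL/6J 25 and 38 (−0.22 and −0.22). DBA/2J had 27 and 30 (−0.25 and −0.21), A/J had 16 and 23 (−0.23 and −0.20), and 129S1/SvImJ had 20 and 23 (−0.19 and −0.17). No test compared the subunits.

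The summed level of the 76 members showed the same in single mice. In PWK/PhJ, the sum fell from 10300 ± 772.3 TMM-scaled CPM (SD, n = 6) on CD to 7568 ± 304.2 (n = 7) on WD, a ratio of 0.735, and no mouse on WD reached the lowest on CD. WSB/EiJ went from 11180 ± 795.1 (n = 6) to 8989 ± 512.0 (n = 6), also with no overlap. C57BL/6J went from 10840 ± 707.9 (n = 8) to 9316 ± 544.7 (n = 8), again with no overlap. In the other strains the groups overlapped. The ratio of WD to CD was 0.855 in DBA/2J, 0.868 in A/J, 0.887 in 129S1/SvImJ, and 0.825 in CAST/EiJ. No test was made of this sum. As an unscaled share of gene reads, the members took 0.709 to 1.51% of a library, and none was among the 20 genes with the most reads. On that scale, WD and CD were separate only in PWK/PhJ, where 6 CD mice had 0.942 to 1.15% and 7 WD mice had 0.793 to 0.896%.

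**Figure D2:**
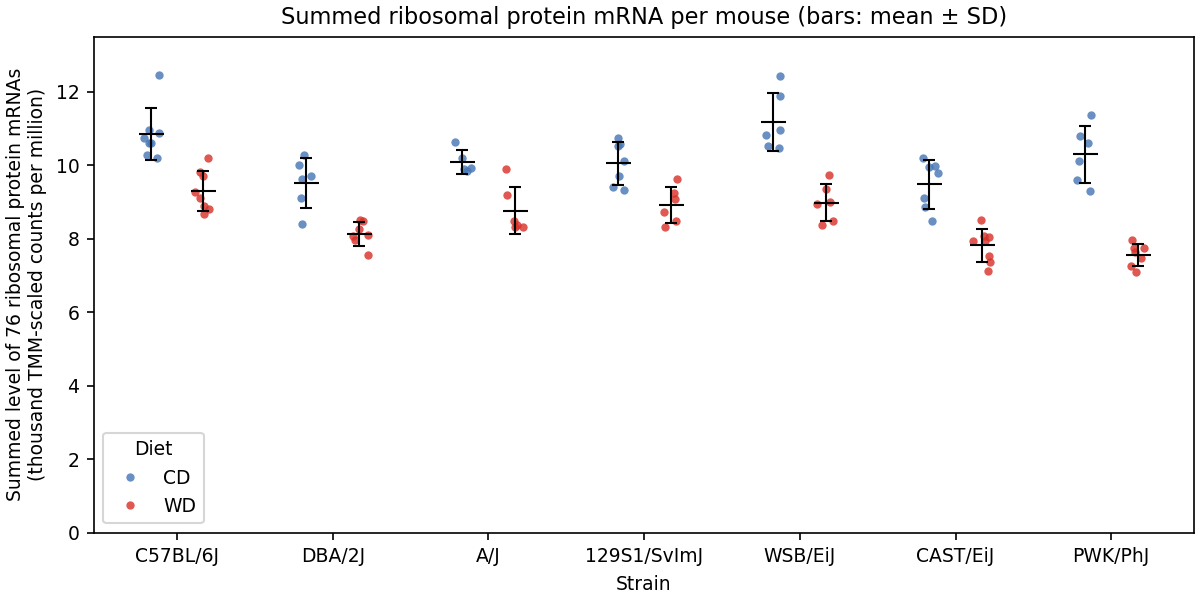
The summed level of the 76 members in each mouse, in TMM-scaled CPM divided by 1e3 on the vertical axis, with CD in blue and WD in red and bars for the mean ± SD of each group of 5 to 8 mice. The WD mice sit lower in every strain, and in C57BL/6J, WSB/EiJ, and PWK/PhJ no WD mouse overlaps with CD.

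Rps6, a 40S protein that is phosphorylated by the S6 kinases downstream of mTORC1, was lower in every strain with no overlap between diets in any of them. In C57BL/6J, it had a lowest, median, and highest value of 156.4, 161.2, and 171.0 CPM on CD and 127.9, 132.6, and 148.0 on WD (log2 fold change −0.25, limma adjusted p = 7.907e-06). In PWK/PhJ, it had 155.1, 187.0, and 198.8 CPM on CD and 121.3, 126.8, and 140.0 on WD (−0.51 ± 0.05 SE, adjusted p = 2.014e-13). In CAST/EiJ, where most reads of this gene and its pseudogene copies lay on the copies, it had 62.5, 69.0, and 79.1 CPM on CD and 50.7, 52.9, and 60.1 on WD (−0.38). Rps6 ended at a similar level on WD in C57BL/6J and PWK/PhJ from a higher median on CD in PWK/PhJ.

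A total of 26 members were lower in all 7 strains, among 62 genes (0.324%) of all those tested. Among them were Rps6, Rps15a, Rps18, Rps26, Rps27a, and Rpsa of the 40S subunit and Rpl5, Rpl10, Rpl11, Rpl14, Rpl28, Rpl30, and Rpl36 of the 60S subunit. A further 19 were lower in 6 strains and 14 in 5. At the other end, Rpl24 was called in no strain, Rpl41 in 1, Rpl23a and Rpl13a in 2, and Rpl19, Rpl29, Rplp1, and Rps19 in 3. Over the 7 strains, the mean log2 fold change was below 0 for all 76 members.

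The largest called decreases among the members were in PWK/PhJ. Rpl36 (chr17:56613416-56614243 of GRCm38, plus strand), a small 60S protein, had a lowest, median, and highest value of 66.1, 83.8, and 102 CPM on CD and 44.5, 50.6, and 56.3 on WD there (−0.75 ± 0.09 SE, limma adjusted p = 2.361e-10). It was also lower in WSB/EiJ, from 70.7, 82.3, and 86.8 CPM to 48.5, 57.7, and 65.0 (−0.49, adjusted p = 8.675e-05), and in DBA/2J, from 46.1, 62.9, and 68.5 to 41.2, 44.5, and 53.5 (−0.39, adjusted p = 0.000879). In C57BL/6J the difference was smaller (−0.23, adjusted p = 0.0239) and the groups overlapped. Rps28 (chr17:33819027-33824562, minus strand), one of the smallest 40S proteins, went in PWK/PhJ from 76.4, 96.0, and 113 CPM on CD to 51.9, 58.6, and 65.4 on WD (−0.70 ± 0.08). Rpl28 (chr7:4792874-4795066, plus strand), whose start site is printed above, went from 149.2, 170.7, and 199.2 CPM to 94.3, 107.4, and 115.0 (−0.69 ± 0.07, adjusted p = 4.12e-13). For each of these 3 genes every PWK/PhJ mouse on WD lay below every one on CD.

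In the other strains, the members with the most negative called values were of both subunits. In 129S1/SvImJ and C57BL/6J, Rpl3, a core protein near the peptidyl transferase centre, was among the most affected. Its lowest, median, and highest values in 129S1/SvImJ were 155.7, 182.6, and 215.6 CPM on CD and 120.0, 135.9, and 147.1 on WD (−0.44 ± 0.06 SE, limma adjusted p = 1.613e-07). In C57BL/6J they were 173.6, 203.5, and 240.2 on CD and 141.6, 152.4, and 179.5 on WD (−0.38, adjusted p = 3.574e-07). The 129S1/SvImJ groups were separate and the C57BL/6J groups overlapped. In A/J, Rpl30 went from 23.4, 24.8, and 25.9 CPM to 17.2, 19.9, and 21.9 (−0.34 ± 0.09, adjusted p = 0.00632), and Rps21 from 61.9, 62.7, and 68.5 CPM to 45.9, 50.2, and 58.4 (−0.33 ± 0.08, adjusted p = 0.0016), both with no overlap. In CAST/EiJ, Rps15a went from 78.9, 84.9, and 91.8 CPM to 54.8, 67.5, and 74.5 (−0.38 ± 0.07, adjusted p = 1.444e-05). These groups were also separate. In WSB/EiJ, Rpl23a went from 26.0, 30.8, and 32.9 CPM to 17.9, 20.9, and 24.3 (−0.54 ± 0.11, adjusted p = 0.000414), but 59.7% of its exon bases are shared with Tlcd1, so the value is uncertain.

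Whether the diet effect was of unequal size between strains was tested in the same limma fit, as the difference of 1 strain from the mean of the other 6. In PWK/PhJ, 48 of the 76 members fell more on WD than in the other strains and 0 fell less, with a median difference of −0.21 on the log2 scale. Of all genes tested, 16.3% differed in PWK/PhJ, 8.7% in the more negative direction. In 129S1/SvImJ, 5 members fell less (of all genes, 6.28% differed in either direction), namely Rpl12 (difference 0.34, adjusted p = 0.00786), Rpl13a (0.44, adjusted p = 0.0309), Rpl15 (0.17, adjusted p = 0.0245), Rpl4 (0.17, adjusted p = 0.0107), and Rpl7a (0.17, adjusted p = 0.0208). In DBA/2J, Rpl3 alone differed (0.21, adjusted p = 0.0490, all genes 7.77%), and with edgeR, with upper-quartile or library-size scaling, or with either other filter on low counts it was no longer called. No member differed in C57BL/6J (all genes 4.69%), A/J (0.466%), WSB/EiJ (0.947%), or CAST/EiJ (14.5%). At an unadjusted p below 0.05, 1 member fell more and 9 fell less in C57BL/6J, 4 fell less in A/J, 5 fell more in WSB/EiJ, and 1 fell more and 1 less in CAST/EiJ. edgeR gave 0 in these strains, and DESeq2 gave 0 but for 1 in CAST/EiJ. Scaling to library size alone lowered the PWK/PhJ count to 8, and leaving out the 3 mice that stood apart raised the 129S1/SvImJ count to 12.

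An F test over the 7 strains called unequal diet effects for 33 of the 76 members, compared with 37.5% of all genes. With scaling to library size alone, 6 members were called. Rps2, a 40S protein at the mRNA entry channel, had the largest F among the members (7.17, limma adjusted p = 8.335e-05). In PWK/PhJ, Rps2 had a lowest, median, and highest value of 229.0, 258.6, and 301.4 CPM on CD and 167.9, 184.0, and 199.8 on WD (−0.51), and its diet effect differed from that of the other strains by −0.36 (adjusted p = 1.681e-05). It was also lower in CAST/EiJ (−0.25), WSB/EiJ (−0.24), and DBA/2J (−0.17). It was not called in C57BL/6J (−0.09), A/J (−0.08), or 129S1/SvImJ (−0.05, a value that turned slightly positive when scaled to library size or by upper quartiles). Thus the groups were separate in the 3 strains with the largest differences and overlapped in the rest.

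Rpl11, which with Rpl5 and 5S RNA binds Mdm2 and so links ribosome assembly to p53, came next (F = 6.29, limma adjusted p = 0.000273). It was lower in all 7 strains, from −0.13 in C57BL/6J to −0.48 in PWK/PhJ, where it differed from the others by −0.30 (adjusted p = 3.095e-05). Rps19, the gene most often mutated in Diamond–Blackfan anaemia, had F = 6.22 (adjusted p = 0.0003). It had −0.44 in PWK/PhJ, −0.35 in WSB/EiJ, and −0.29 in CAST/EiJ, all called, and −0.04 in C57BL/6J, −0.03 in DBA/2J, −0.06 in 129S1/SvImJ, and −0.15 in A/J, none called. The strains with a call, WSB/EiJ, CAST/EiJ, and PWK/PhJ, are wild-derived, but these were not tested against the other strains as a group. Against the mean of the other strains, no member differed in WSB/EiJ or CAST/EiJ. Rps23, a protein of the decoding centre, had F = 5.01 (adjusted p = 0.00162) and fell in PWK/PhJ from 110.0, 119.0, and 140.1 CPM to 80.8, 83.1, and 89.2 (−0.54). Rpl3 had F = 4.98 (adjusted p = 0.00172), with −0.17 in DBA/2J and −0.59 in PWK/PhJ.

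Rpl41, the shortest 60S protein, was lower in PWK/PhJ, where it went from 186.3, 212.6, and 241.5 CPM on CD to 123.1, 144.7, and 164.5 on WD (−0.56, limma adjusted p = 2.424e-08). Its difference from the other strains was −0.42 (adjusted p = 0.000236). In those strains it had values of −0.07 to −0.23 that were not called. Rpl36 (−0.41, adjusted p = 0.00154), Rps28 (−0.39, adjusted p = 0.00125), and Rpl28 (−0.37, adjusted p = 0.000208) also differed in PWK/PhJ.

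The members with other known roles followed the rest. Rpl5, the partner of Rpl11 and 5S RNA, was lower in all 7 strains (−0.18 to −0.34). Rpsa, the 40S protein also known as the laminin receptor precursor, was lower in all 7 (−0.26 to −0.50), as was Rps27a, which is made as a fusion with ubiquitin (−0.22 to −0.51). In PWK/PhJ, Rps27a had 123.5, 132.1, and 149.9 CPM on CD and 90.4, 92.9, and 99.4 on WD, with no overlap. The P-stalk proteins, which recruit the GTPases of translation to the 60S subunit, were less uniform. Rplp0 was lower in 6 strains, down to −0.35 in PWK/PhJ (limma adjusted p = 3.187e-07), and had −0.13 in C57BL/6J (adjusted p = 0.0575). Rplp2 was lower in 5 strains, with −0.45 in PWK/PhJ, and had −0.07 in 129S1/SvImJ and −0.21 in A/J without a call. Rplp1 was lower in 3 strains, with −0.25 in WSB/EiJ, −0.24 in CAST/EiJ, and −0.21 in PWK/PhJ, and had −0.03 in C57BL/6J and DBA/2J. Whether the stalk proteins differ from the other members was not tested.

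Across the 76 members, the diet effects of pairs of strains had a Pearson r of 0.06 (DBA/2J with 129S1/SvImJ) to 0.57 (DBA/2J with PWK/PhJ). These are descriptions over 76 genes measured in the same libraries, with differing counts and shared normalization, and genes are not independent replicates.

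The cohorts of the labels, which do not say what a cohort shared, were compared within strains, and the difference between diets had the same sign within every cohort. The median log2 difference of the members was −0.44 in cohort 1 (3 CD and 3 WD mice) and −0.46 in cohort 2 (3 and 4) for PWK/PhJ. For C57BL/6J it was −0.30 in cohort 1 and −0.17 in cohort 2, for DBA/2J −0.28 in cohort 4 and −0.18 in cohort 5, for A/J −0.21 in cohort 2 and −0.20 in cohort 3, and for 129S1/SvImJ −0.13 in cohort 3 and −0.22 in cohort 5. WSB/EiJ had −0.23 in cohort 6 (4 and 4 mice) and −0.48 in cohort 7 (2 and 2). CAST/EiJ had −0.11 in cohort 1 (1 and 3), −0.13 in cohort 3 (2 and 2), and −0.46 in cohort 4 (4 and 3). The size of the difference therefore varied between cohorts of CAST/EiJ and WSB/EiJ and was close in both cohorts of PWK/PhJ and A/J.

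Other measures moved with the diets. Of 10 hepatocyte markers, 5 were lower on WD in PWK/PhJ, 5 in C57BL/6J, 3 in DBA/2J, 4 in A/J, 7 in 129S1/SvImJ, 3 in WSB/EiJ, and 2 in CAST/EiJ, and 0 were higher. Their sum in PWK/PhJ was 121200 to 146500 CPM on CD and 78370 to 105000 on WD, and in DBA/2J 117700 to 142000 and 101800 to 131500. The ranges were also separate in C57BL/6J, A/J, CAST/EiJ, and WSB/EiJ, where the median went from 156400 to 97160 CPM. In 129S1/SvImJ they overlapped, as in DBA/2J. Of 11 Kupffer cell and macrophage markers, 7 were higher on WD in PWK/PhJ, 6 in C57BL/6J, 8 in 129S1/SvImJ, 2 in WSB/EiJ, 2 in CAST/EiJ, and 0 in DBA/2J and A/J. Their sum in PWK/PhJ was 44.5 to 321.1 CPM on CD and 320.3 to 459.9 on WD, and in DBA/2J 328.1 to 537.3 and 294.9 to 518.1. Only in 129S1/SvImJ were the ranges separate, with 200.3 to 340.4 CPM on CD and 450.3 to 627.4 on WD. Of 5 cholangiocyte markers, 4 were higher in PWK/PhJ, with sums of 64.5 to 140.3 CPM on CD and 158.6 to 524.7 on WD. In C57BL/6J, 129S1/SvImJ, and CAST/EiJ, 1 was higher in each, and in DBA/2J 1 was lower. The 129S1/SvImJ sums were also separate, with 21.3 to 43.1 CPM on CD and 59.7 to 101.9 on WD. So were those of WSB/EiJ (17.2 to 26.7 and 27.7 to 32.2) and CAST/EiJ (22.5 to 34.3 and 34.6 to 62.3). Of 7 hepatic stellate cell markers, 4 were higher in PWK/PhJ, with sums of 136.3 to 219.1 CPM on CD and 296.7 to 606.5 on WD. A further 3 strains had some higher, with 3 in C57BL/6J, 3 in 129S1/SvImJ, and 2 in A/J, and the rest had 0. Sums were also separate in 129S1/SvImJ, with 292.2 to 341.4 CPM on CD and 353.9 to 441.0 on WD. In 129S1/SvImJ, 8 of 9 T and NK cell markers and 5 of 6 neutrophil and monocyte markers were higher. Of the latter 6, 3 were higher in PWK/PhJ and in C57BL/6J, and 1 each in DBA/2J, A/J, and WSB/EiJ. For T and NK cells, 1 marker was higher in C57BL/6J and 1 lower in PWK/PhJ, where 1 B and plasma cell marker was also lower. Endothelial markers had calls in both directions, with 3 of 7 lower in DBA/2J and 2 higher in 129S1/SvImJ. By strain, 3.97 to 14.5% of all genes were lower and 4.39 to 15.1% higher. No marker of these lists was at 0 in every mouse. The median share of unmapped reads also went from 3.71 to 8.26% in PWK/PhJ, 4.14 to 8.18% in WSB/EiJ, and 10.2 to 13.0% in CAST/EiJ, and from 6.54 to 5.04% in DBA/2J. The part of these changes in the lower ribosomal protein mRNAs was not tested.

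The genes that work with the members were described by the same fit. Of 14 ribosomal proteins whose symbols lie outside the name rule, 12 were tested, and 3 to 6 of them were lower in each strain. The share of all genes called lower ran from 3.97% to 14.5% by strain. Rps3a1, a 40S protein, was lower in all 7 strains (−0.23 to −0.39), Fau, which carries the 40S protein eS30, had −0.55 in PWK/PhJ (limma adjusted p = 2.991e-10), and Rack1, the 40S scaffold, had −0.37 there (adjusted p = 1.442e-07). The exceptions that rose were Rps27l in DBA/2J (0.28) and Rpl3l in A/J (1.96), the latter at 0.174 CPM on CD and 0.798 on WD. The 25 other TOP mRNAs of translation, such as elongation factors, were lower in 13 cases in C57BL/6J, 7 in DBA/2J, 5 in A/J, 11 in 129S1/SvImJ, 12 in WSB/EiJ, 20 in CAST/EiJ, and 18 in PWK/PhJ, where 1 was higher. The 12 in WSB/EiJ stand beside 3.97% of all genes lower there, and the 18 in PWK/PhJ beside 14.5%. Shares for the remaining strains are given with the calls above. The medians of these 25 mRNAs, from −0.11 in 129S1/SvImJ to −0.25 in PWK/PhJ, were nearer to 0 than those of the members in every strain. Eef1a1, the elongation factor that delivers tRNA, went from a mean of 4657 to 3764 CPM in WSB/EiJ (−0.31), and Eef1b2, its exchange factor, had −0.41 in CAST/EiJ.

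Ribosome biogenesis factors, which process and assemble ribosomal RNA, were lower for 24 of 66 genes in 129S1/SvImJ, 20 in CAST/EiJ, 19 in C57BL/6J, 10 each in A/J, WSB/EiJ, and PWK/PhJ, and 2 in DBA/2J, with 1 higher in DBA/2J and 129S1/SvImJ. The 10 in PWK/PhJ stand beside 14.5% of all genes lower there, and the 10 in WSB/EiJ beside 3.97%. The order of strains was unlike that of the members, since PWK/PhJ had a median of −0.10 here. Ncl, which encodes nucleolin, had −0.38 in CAST/EiJ, Nop10 had −0.44 in PWK/PhJ, and Utp20 had −0.55 in 129S1/SvImJ. Of 16 genes of RNA polymerase I and its factors, 0 to 5 were lower and 0 to 2 higher. Over the strains, 3.97 to 14.5% of all genes were lower and 4.39 to 15.1% higher. Among the lower ones, Taf1d had −0.56 in WSB/EiJ and −0.51 in CAST/EiJ.

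Of 22 genes for mTORC1, MYC, and the control of TOP mRNAs, 1 to 5 were lower and 0 to 4 higher, with medians of −0.10 to 0.02. Beside these counts, 3.97 to 14.5% of all genes were lower and 4.39 to 15.1% higher, by strain. Larp1, whose protein binds the TOP tract, was lower in C57BL/6J (−0.36), PWK/PhJ (−0.30), DBA/2J (−0.29), and A/J (−0.26). Mtor had −0.49 in CAST/EiJ, and Myc rose in 129S1/SvImJ from a mean of 2.64 to 13.3 CPM (2.14, limma adjusted p = 0.00317). Among all genes, PWK/PhJ had 14.5% lower and 129S1/SvImJ 13.6%. On the higher side, C57BL/6J had 14.3% of all genes, DBA/2J 10.2%, and CAST/EiJ 9.77%. The counts of mitochondrial ribosomal proteins stand beside these shares. These proteins, which serve translation inside mitochondria, had medians below 0 in some strains and above 0 in others. Of 77, WD lowered 48 in PWK/PhJ (median −0.17), 23 in 129S1/SvImJ, and 0 to 7 in each of the remaining strains. It raised 13 in CAST/EiJ (median 0.08), 9 in DBA/2J (0.05), 7 in C57BL/6J, and 0 to 2 elsewhere.

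**Figure D3:**
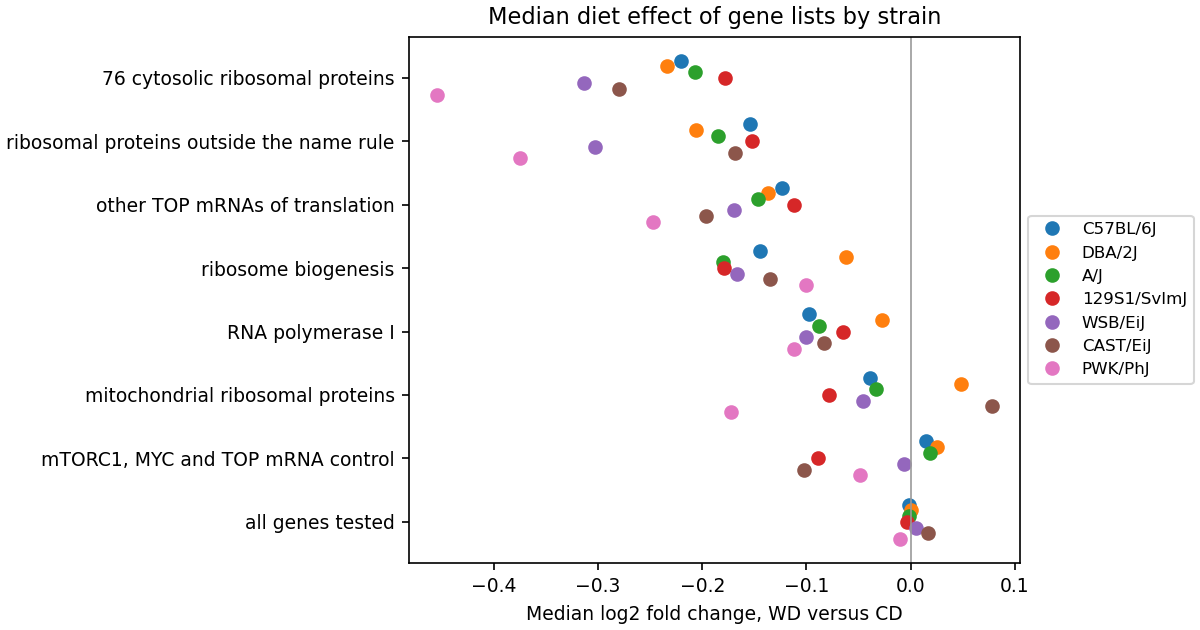
The median log2 fold change of WD against CD in each strain for the 76 members and for the other lists of genes, with the median of all genes tested. The members lie lowest in PWK/PhJ at −0.45, the mitochondrial ribosomal proteins lie above 0 in CAST/EiJ and DBA/2J, and all genes lie between −0.01 and 0.02.

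Levels on CD were compared between strains to describe the genetic background without the Western diet. The F test called 74 of the 76 members unequal between strains, and 93.7% of all genes. Compared with the mean of the other 6 strains, 50 members were higher and 9 lower in WSB/EiJ (of all genes, 49.2% differed), with a median of 0.21 on the log2 scale. In DBA/2J, 7 were higher and 31 lower (42.3%), and in 129S1/SvImJ 13 and 28 (44.2%), with medians of −0.09 and −0.07. PWK/PhJ had 32 higher and 20 lower (58.6%), C57BL/6J 22 and 9 (57.9%), CAST/EiJ 15 and 27 (63.9%), and A/J 14 and 13 (36.7%). For most members the strains were close. The ratio of the highest to the lowest strain mean on CD had a median of 1.41, was under 1.5 for 47 members, and was over 2 for 16.

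Some of the largest strain differences, though not all, were in members with many reads on near copies in the genome. Ribosomal protein genes have many processed pseudogenes, and 499 annotated pseudogenes matched the coding sequence of a member at 95% identity or more over at least 80% of its length, for 69 of the 76 members. Rpl26, for example, had a mean of 6.09 ± 0.38 CPM (SD, n = 5) in A/J on CD, and 89.4 to 134.5 CPM in the other strains. Near copies of Rpl26 held another 72.8 CPM in A/J, or 92.3% of the sum. With the copies added, the ratio of the highest to the lowest strain went from 22.1 to 1.73. Whether the strain alleles carry the bases of the copies was not tested, because no sequence of the other strains was used here.

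The sites where 4 members and their copies with the most reads differ are shown because, within the coding sequence, reads of a member and of its copy can be told apart only at such bases. Each pair gives 30 bases of the coding strand in GRCm38, with the differing base in capitals, and positions are counted from the A of the start codon. For Rpl26 and Gm15772 the difference is T288C, 1 of 2 in 435 bases. For Rps26 and Rps26-ps1 it is C30T, 1 of 2 in 345 bases, for Rps6 and Gm8172 it is T294C, 1 of 6 in 747 bases, and for Rpl29 and Gm10709 it is G205A, 1 of 4 in 480 bases.
Rpl26, chr11:68903283-68903312, plus strand: tggcacaaccgtccaTgtgggcatccaccc
Gm15772, chr5:3236703-3236732, plus strand: tggcacaaccgtccaCgtgggcatccaccc
Rps26, chr10:128626200-128626229, minus strand: aagaaacaacggtcgCgccaaaaagggccg
Rps26-ps1, chr8:107439519-107439548, minus strand: aagaaacaacggtcgTgccaaaaagggccg
Rps6, chr4:86856187-86856216, minus strand: gcgcaagtctgttcgTggatgcattgtgga
Gm8172, chrX:69605938-69605967, minus strand: gcgcaagtctgttcgCggatgcattgtgga
Rpl29, chr9:106431156-106431185, plus strand: gcagtgagtgcgcgcGcagaggccatcaag
Gm10709, chr9:7751914-7751943, plus strand: gcagtgagtgcgcgcAcagaggccatcaag

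Rps26, a protein at the mRNA exit of the 40S subunit, had 25.9 ± 3.7 CPM in PWK/PhJ on CD (SD, n = 6), where its copies had 139.7 CPM (84.4% of the sum), and 110.6 to 166.1 CPM in the other strains. Its strain ratio went from 6.42 to 1.25 with the copies added. Rps6 had 70.0 ± 6.1 CPM in CAST/EiJ (n = 7), where the copies had 121.8 CPM (63.5%), and 152.9 to 183.3 CPM elsewhere, and its ratio went from 2.62 to 1.23. For these genes the low strain was thus level with the others once the copies were counted.

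Rplp0, often used as a reference gene in liver, had a mean of 360.8 CPM in C57BL/6J and of 338.0 and 268.6 CPM in WSB/EiJ and A/J. DBA/2J and PWK/PhJ, with 142.3 and 146.6 CPM, and CAST/EiJ and 129S1/SvImJ, with 153.4 and 162.1 CPM, had far less on the gene itself. In the latter 4 strains its copies had 93.5 to 142.3 CPM, and in C57BL/6J 3.7. Counting them lowered the ratio between strains from 2.54 to 1.59, so part of the difference remained. Rpsa was lowest in DBA/2J with 157.1 CPM, where the copies had 89.4 CPM (36.3%), and its ratio went from 2.98 to 1.91. Rpl29, a small 60S protein, had 134.2 CPM in C57BL/6J and 146.0 in PWK/PhJ, 59.9 in CAST/EiJ, and 12.4 to 15.0 in the remaining 4 strains. Its copies had 9.4 to 10.9 CPM in these 4 strains and 56.3 CPM in CAST/EiJ, and the ratio of 11.8 was still 6.74 with copies added.

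In other members, the copies made little difference. Rps18 had 143.8 CPM in C57BL/6J and 156.0 in 129S1/SvImJ and 46.1 to 70.1 in the others, and its ratio was 3.39 without and 3.37 with the copies. Rpl7a had 125.3 CPM in CAST/EiJ and 157.6 in PWK/PhJ and 236.7 to 313.3 in the others (2.50 and 2.17). Rpl13a went the other way, from 2.65 to 2.90. The largest F values for strain on CD among the members were 1404 for Rpl29, 740 for Rpl26, 408 for Rps26, 241 for Rplp0, 223 for Rpl7a, 219 for Rps18, 205 for Rps6, and 153 for Rpsa. Over all 76 members, the strain ratio was smaller with copies added for 48, its median went from 1.41 to 1.35, and the number with a ratio over 2 from 16 to 9. The diet comparison, made within a strain, moved little when copies were added, with 62 members lower in C57BL/6J, 57 in DBA/2J, 37 in A/J, 43 in 129S1/SvImJ, 74 in WSB/EiJ, 70 in CAST/EiJ, and 76 in PWK/PhJ.

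**Figure D4:**
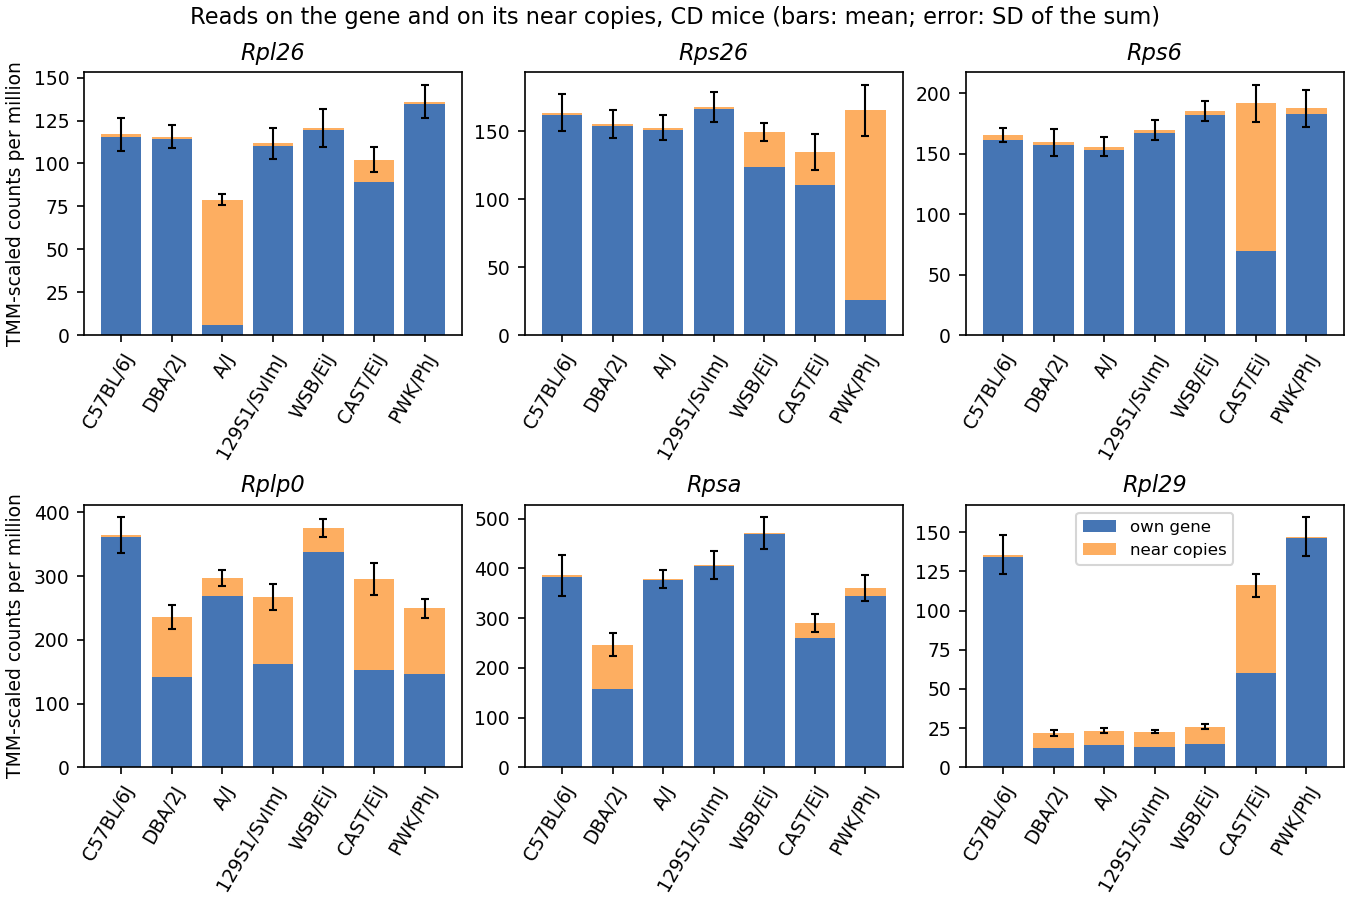
Mean CPM on CD of 6 members (blue) with the CPM of their near copies (orange) stacked on top, for each of the 7 strains, and the SD of the sum over 5 to 8 mice as error bar. Rpl26 in A/J, Rps26 in PWK/PhJ, and Rps6 in CAST/EiJ have most of their sum on the copies. With these, Rps26 and Rps6 are level with the other strains, and Rpl26 in A/J is still the lowest.

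**Figure D5:**
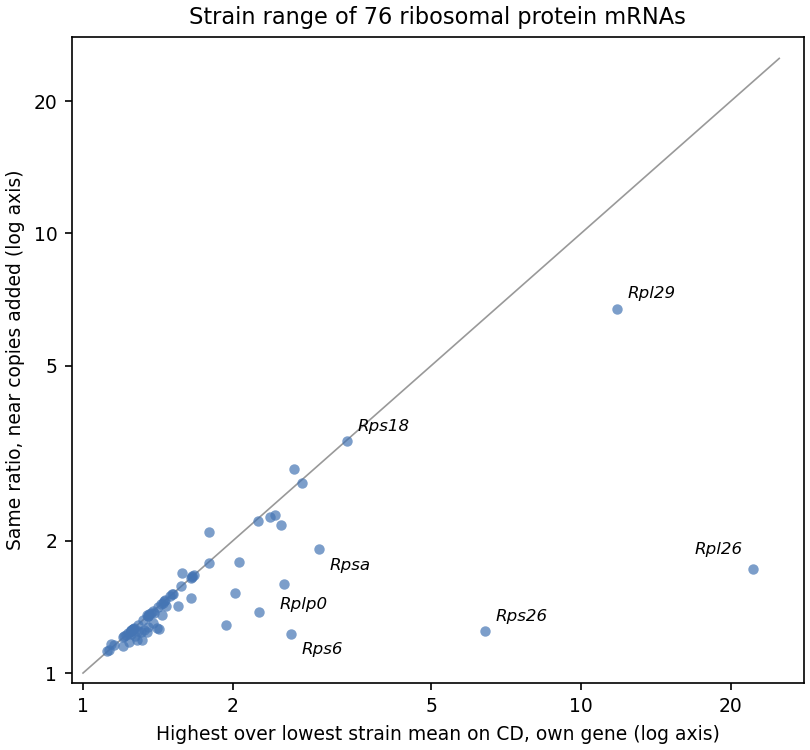
Each point is a member, with the ratio of the highest to the lowest strain mean on CD from its own counts (horizontal, log axis) and with near copies added (vertical, log axis). Rpl26 drops from 22.1 to 1.73 and Rps26 from 6.42 to 1.25, Rpl29 stays at 6.74, and most members lie under 2 on both axes.

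Per kilobase of exon, the members were among the most abundant mRNAs of the liver. The median member had 5.72 log2 CPM per kilobase and the median of all genes tested 0.289, and the median member exceeded 96.3% of the genes tested. Levels per length were highest for Rplp1 (496 CPM per kilobase), Rps15 (215), and Rpl4 (194) and lowest for Rpl24 (0.270), Rpl13a (3.25), and Rps15a (10.8). The length was that of all annotated exons of a gene joined, so a gene with a long rare isoform, such as Rps15a with 6270 bases, is set too low. Rpl24 shares 47.0% of its exon bases with Gm28037 on the same strand, and Rpl13a 29.4% with Gm45713. Reads in such shared stretches can be lost as ambiguous, which held 3.69 to 5.67% of reads per mouse, so the levels of Rpl24, Rpl13a, Rpl23a, and Rpl35, with 66.2% of its exon bases shared with other genes, are uncertain.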

How the data were processed

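Liver RNA of 93 mice was sequenced by the authors with the SMARTER mRNA-Seq kit on the BGISEQ-500 and mapped with STAR (2.7.1a in the submitters' processing notes, which name GRCm38 and mm10). The authors deposited raw counts, whole reads per gene with no normalization, and 4 summary lines that were taken out of the gene table. Strand handling in counting is not given in the sources used here.

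Analysis used limma 3.58.1 and edgeR 4.0.16 in R 4.3.3 (filterByExpr with a minimum count of 10, TMM, voom, 14 group means), tested on simulated data. Libraries held 40020424 to 49894856 gene reads. Precision is limited for members with few counts such as Rpl24. Mice are separate animals, and all comparisons share the fit. Members and lists were chosen with earlier results of these data known. Exons and pseudogenes came from GENCODE M21, which held 53360 of the 53465 gene rows. Near copies were annotated pseudogene transcripts (12550 searched). Start sites came from RefSeq.

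Members named with values were, for each strain, the 2 called ones with the most negative log2 fold change, the 5 called in most strains, the 5 with the largest F for unequal diet effects, the 8 with the largest F for strain on CD, the 3 highest and 3 lowest per length, and 8 with known roles. Rpl41, Rps27a in single mice, the members in the lists of counts of 5 or fewer, Rpl13a with copies, and members of the copy comparison were otherwise named after their values were seen. Some members that this rule names are not reported here. Of other lists, at most 3 genes per strain with the largest limma statistic were named.

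Alternatives were edgeR's quasi-likelihood test, DESeq2 1.42.0, upper-quartile factors, library size alone, no filter, at least 10 counts in every mouse, RIN or cohort as covariates, separate fits, sample quality weights, and each A/J mouse left out. Added after seeing the data were near copies counted with members, mice with RIN below 8 left out, and the 3 mice that stood apart left out.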

Additional observations from a re-analysis of the deposited data

Results flagged for a closer look

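The share of gene reads on the 76 members, and the CPM of the named members in the groups that the text describes, were examined for single mice far from their group by Dixon's ratio of the gap to the range. Of 42 groups examined, 4 held such a mouse, and chance alone flags about 1 group in 20. The shares were 0.999% in A/J WD replicate 3, 1.51% in C57BL/6J CD replicate 2, and 1.29% in C57BL/6J WD replicate 3, each above the rest of its group. Rpl12 was at 154 CPM in 1 C57BL/6J mouse on WD, above the others. The sums of marker genes of these 3 mice stand beside the description of the libraries, and what set their shares was not tested.

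Diet effects that differed between strains by the test of the difference itself were those of 48 members for PWK/PhJ, 5 for 129S1/SvImJ, and 1 for DBA/2J, each against the mean of the other 6 strains. Of all genes tested, 16.3%, 6.28%, and 7.77% differed in these strains, so the share in PWK/PhJ lay above that of all genes, the share in 129S1/SvImJ near it, and the share in DBA/2J below it. The members with the largest F over the 7 strains were Rps2 (7.17), Rpl11 (6.29), Rps19 (6.22), Rps23 (5.01), and Rpl3 (4.98).

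The reads on pseudogenes lie outside the counts of the members. On CD, near copies held 92.3% of the reads of Rpl26 and its copies in A/J, 84.4% for Rps26 in PWK/PhJ, and 63.5% for Rps6 in CAST/EiJ. For Rpl24, which itself had few counts in every strain, they held from 76.2% to 83.1%, the latter in 129S1/SvImJ.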

How the results depend on the processing

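No paired analysis was possible because each mouse was a separate animal that ate only 1 of the diets. A count was taken as kept when it stayed at 0 or within a set factor. A median or ratio was kept when it moved by less than the spread between mice. The counts of members called higher, all 0, are among those kept. With the settings other than those added after seeing the data, 370 results were kept and 32 moved. With the added ones, 100 were kept and 3 moved. No alternative called a member higher on WD. For 34 named pairs of member and strain, 326 comparisons with the former settings kept their call or lack of one, 11 lost it, 1 gained it, and 2 reversed, and with the latter 67 kept it and 1 lost it. The reversed ones were Rps2 in 129S1/SvImJ, at 0.010 with upper-quartile factors and 0.024 with library size alone, not called in either. Scaling to library size alone moved most. It left 0 members lower in A/J, 7 in 129S1/SvImJ, 22 in CAST/EiJ, and 41 in WSB/EiJ, medians of −0.076 in A/J, −0.155 in CAST/EiJ, and −0.29 in PWK/PhJ, 6 members with unequal diet effects, and, against the other strains, 8 for PWK/PhJ, 1 for 129S1/SvImJ, and 0 for DBA/2J. On CD it gave 58 members that differed in C57BL/6J, 24 in DBA/2J, 26 in 129S1/SvImJ, and 31 in WSB/EiJ. Upper-quartile factors gave 25 lower in A/J and 17 in 129S1/SvImJ, and 13 in 129S1/SvImJ and 0 in DBA/2J against the other strains. Sample quality weights gave 70 lower in A/J, and, against the others, 19 for 129S1/SvImJ and 1 for C57BL/6J. At least 10 counts in every mouse gave 8 in 129S1/SvImJ, 1 in CAST/EiJ, and 0 in DBA/2J. DESeq2 gave 8 in 129S1/SvImJ and 1 in CAST/EiJ. Rpl3 in DBA/2J was lost, leaving 0, with no filter and with edgeR, and, chosen after seeing the data, with near copies added or mice with a RIN below 8 left out. Leaving out the 3 mice that stood apart, also chosen then, gave 12 in 129S1/SvImJ. Without 1 A/J mouse at a time, 21 to 49 members were lower in A/J. The TOP motif within 5 bases was at 43.9% of start sites. For these moves, the cause was not tested. Rpl24 had the fewest counts among the members, 1 to 28 per mouse, and why they were low was not tested.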
